A study of Mus musculus with 12 samples.

Results

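Reprogrammed lung epithelium was compared with adult lung epithelium of the mouse on single-colour miRNA arrays. The comparison used the 3 arrays titled reprogrammed lung and the 3 arrays titled adult lung, 6 of the 12 arrays of the series, and the groups were taken from the array titles. The other 6 arrays held adult mammary epithelium of mice of 10 weeks (n = 3) and reprogrammed mammary epithelium, for which no age is given (n = 3). They entered the same fit, where they added to the estimate of the spread, and they served as the comparison of effects given further on.

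The adult lung group (n = 3) was primary epithelium of female mice of 10 weeks, carrying no named allele, transgene or agent. Per the labels' protocols, the organ was perfused, minced, digested with trypsin and collagenase, and the epithelium was enriched by repeated low-speed centrifugation. No cell sort is named there. The protocols also cover embryonic lung, separated into epithelium and mesenchyme, and the mixing of single cells into Matrigel for transplantation. The series title speaks of adult lineage reprogramming in vivo that depends on stroma. For the reprogrammed lung group (n = 3), the labels give the words lung and epithelial cells, and no host, stroma, time after transplantation, age or method of recovery. The titles do not settle whether lung names the tissue the cells came from or the tissue they had become, so every value below belongs to the arrays labelled reprogrammed lung. Whether the arrays of a group held RNA of separate animals is not stated, and a p-value here reflects the scatter among these arrays alone, some or all of which may be technical. The number of arrays limits the precision.

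MicroRNAs are short non-coding RNAs that are cut from hairpin precursors and guide Argonaute proteins to messenger RNAs, whose translation and stability they lower. Their levels differ strongly between tissues and cell types. Several are transcribed together as clusters from 1 primary transcript, and members of a cluster often change together between tissues. In the lung, as in other epithelia, the miR-200 family is known for keeping the epithelial state.

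The probes of this custom array carry serial numbers of the design in place of miRNA names, and no table used here links them to miRNAs. None of the 22 lists of miRNAs drawn up for the work (epithelial, proliferative, developmental and cell type marker lists) could therefore be matched. The labelled cell type was not checked against its markers, and no mature sequence is shown. Probes are described by serial number, level and change, and at most 2 that rose and 2 that fell are named. In these bulk samples, fewer cells of a type and less RNA per cell cannot be told apart.

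Each array held 15611 spots, of which 15075 were not controls and measured 2579 probes. Most probes (2270) were printed 6 or 7 times, 117 were printed 5 times and 192 once. A level below is the log2 of a probe's processed signal after scaling by the array's 75th percentile, with a floor at 3.41 on that scale. Detection required that the spots well above background exceeded 0.5 of those of the probe on an array. Of the 2579 probes, 631 were detected on all 12 arrays and 1479 on none, and the 947 detected on at least 3 arrays were tested with limma. A probe was called at an adjusted p under 0.05 (Benjamini-Hochberg over the 947).

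The brightness of the arrays moved with the groups. The unscaled 75th percentile of the processed signal over the 631 probes detected everywhere was 2308, 2278 and 2963 on adult lung arrays 1, 2 and 3, a mean of 2516 ± 387 (SD, n = 3). It was 1680, 1267 and 1627 on the reprogrammed lung arrays, a mean of 1525 ± 224 (SD, n = 3). The groups did not overlap, and the exact two-sided permutation test gave p = 0.10, the smallest that 3 against 3 arrays allow. The number of probes detected was 880, 851 and 1006 on the adult lung arrays and 906, 875 and 882 on the reprogrammed lung arrays. These groups overlapped (exact two-sided permutation p = 0.90). The scaling removes a common brightness factor, and the part of the brightness in the results below was not tested beyond the other scalings given with them.

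Reprogrammed and adult lung epithelium differed in 332 of the 947 probes tested (35.1%). Of these, 191 were higher in reprogrammed lung (20.2% of the probes tested) and 141 were lower (14.9%).  The probes called higher had a median log2 change of 1.07, with quartiles of 0.81 and 1.54 and extremes of 0.32 and 6.58. The probes called lower had a median log2 change of -1.06, with quartiles of -1.49 and -0.77 and extremes of -4.80 and -0.35. Over all 947 probes the median change was 0.14, and the median size of a change, whatever its sign, was 0.58. At an unadjusted p under 0.05, 431 probes passed in limma. Among the called probes, 108 were higher (11.4%) and 75 lower (7.92%) by more than 2-fold. Past 4-fold there were 23 higher and 12 lower, past 8-fold 9 and 7, past 16-fold 6 and 2, and past 32-fold 2 and 0.

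**Figure D1:**
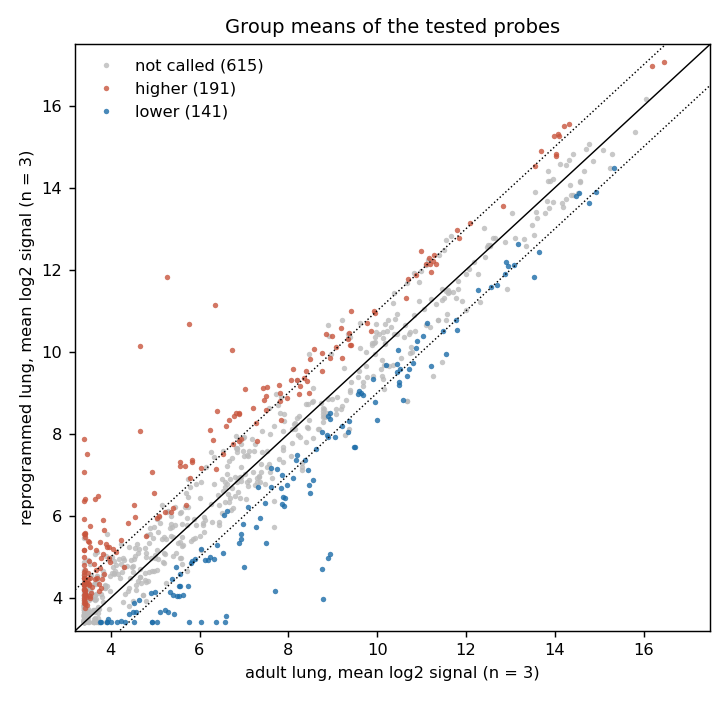
Mean log2 scaled processed signal of each of the 947 tested probes in adult lung (horizontal axis, n = 3) and reprogrammed lung (vertical axis, n = 3), with the diagonal of equal level and dotted lines at 2-fold. Of the coloured points, 191 lie above the diagonal and 141 below it, and a few of them lie far from the 2-fold lines at the left (higher) and at the lower edge (lower).

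The split between higher and lower calls depended on the scaling, the signal values, the background correction and the floor. With the 75th percentile taken over all probes in place of those detected on every array, 89 were higher and 223 lower. Quantile normalization gave 119 higher and 182 lower, and no scaling gave 53 and 305. With the percentile over probes with several spots the split was 136 and 198, with the total gene signal 138 and 188, with normexp background correction 195 and 93, and with the authors' deposited values 100 and 150. Normexp without a floor afterwards, an alternative chosen after seeing the data, called 596 probes, 489 higher and 107 lower. The share of calls that were higher thus ran from 14.8% without scaling to 82.0% with normexp and no floor, against 57.5% in the analysis reported. The median change of all probes was -0.05 with the all-probe percentile, -0.39 without scaling, 0.13 with normexp and 0.51 with normexp and no floor. Which direction held more probes therefore depended on the scaling and the signal values used. The size of the split also moved with the background correction and the floor. Single changes stand beside the median change of all probes in the same setting. Of the 32 other settings tried, 1 called any of the 332 probes in the opposite direction, namely normexp without a floor, which did so for 3 probes.

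**Figure D2:**
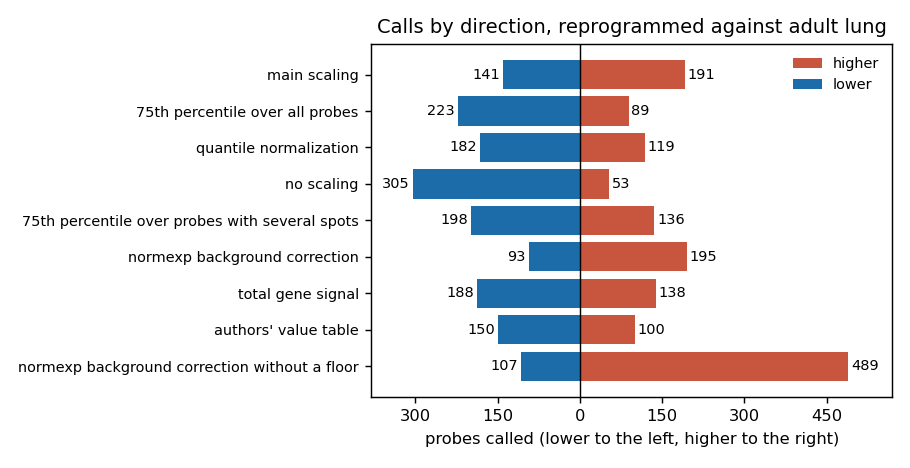
Number of probes called lower (left) and higher (right) in reprogrammed against adult lung at an adjusted p under 0.05 in limma, for the reported scaling and 8 alternatives. Among these settings, higher calls outnumber lower ones with the main scaling (191 against 141) and with normexp (195 against 93, and 489 against 107 without a floor).

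Which calls were lost also depended on the setting. The all-probe percentile lost 102 higher and 0 lower calls and no scaling lost 139 and 0, and both settings lower the median change of all probes. Normexp with the floor kept lost 54 higher and 51 lower calls. Of the 191 probes called higher, 30 were also called in each of 6 alternatives that changed the scaling, the background correction (normexp with the floor kept) or the signal column. Of the 141 called lower, 88 were. The sign alone was kept under all 6 by 173 higher and 120 lower probes. Leaving out each of the 6 lung arrays in turn, 101 higher and 88 lower probes kept their call every time. Both requirements were met by 28 higher and 57 lower probes. These 28 higher probes had a median log2 change of 2.15 and all exceeded 2-fold, the smallest change being 1.52. The 57 lower probes had a median of -1.38, and 45 of them exceeded 2-fold. Of the 35 probes called past 4-fold, 28 met both requirements. The number of calls fell to 204 without adult lung array 2 and to 220 without adult lung array 3, and it was between 232 and 347 without any other single lung array.

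The probes called higher had a median level of 5.26 in adult lung and 7.14 in reprogrammed lung. It was 7.09 in adult mammary and 6.76 in reprogrammed mammary epithelium. The probes called lower had a median level of 7.89 in adult lung and 6.46 in reprogrammed lung, and of 6.84 and 6.32 in adult and reprogrammed mammary epithelium. The lung levels of these probes follow from the choice of the probes and are a description. The mammary levels come from arrays outside the lung comparison, and they were not tested against the lung levels.

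The change was seen at every signal level. Calls made up 29.4% of the dimmest 316 tested probes (59 higher and 34 lower), 37.1% of the middle 315 (59 and 58) and 38.6% of the brightest 316 (73 and 49). Probes printed once were called in 59 of 157 cases (37.6%), with 22 higher and 37 lower. Probes printed 6 or 7 times were called in 266 of 754 (35.3%), with 162 higher and 104 lower. The share called was thus similar, while the balance of directions differed. The probes printed once included runs of consecutive serial numbers that changed in the same direction. Their calls may not be independent, so the balance cannot be tied to the number of spots. Probes printed 5 times were called in 7 of 36 cases (19.4%), all 7 higher. Of the 332 calls, 157 higher and 120 lower probes were detected on all 6 lung arrays. All 3 adult lung arrays lay at the floor for 17 higher probes, and all 3 reprogrammed lung arrays lay there for 10 lower probes, and the fitted change of these probes depends on the floor.

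The size of the change over the called probes differed between the reprogrammed lung arrays. The probes were called on these same arrays, so the sign of each median follows from that choice. Against the adult lung mean, the 191 higher probes had a median difference of 0.80 on reprogrammed lung array 1, 1.18 on array 2 and 1.08 on array 3. The 141 lower probes had medians of -1.21, -0.91 and -1.04 on these arrays. Array 1 therefore showed the smallest rise and the largest fall. It held the least changed value in 109 of the 191 higher probes and the most changed value in 94 of the 141 lower probes. Over all 947 probes the medians were 0.19, 0.13 and 0.04, after each array had been scaled to its own 75th percentile. Each adult lung array, set against the other adult lung arrays, had medians between -0.11 and 0.07 in both sets.

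**Figure D3:**
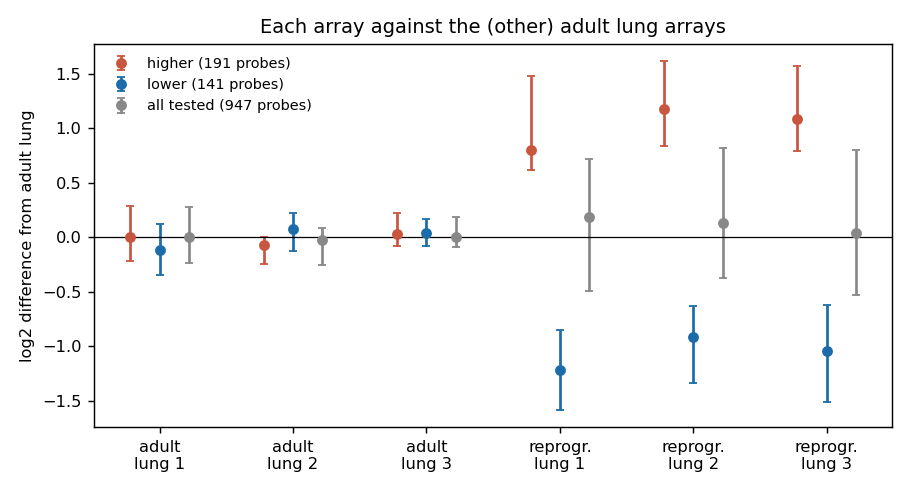
Log2 difference of each lung array from the mean of the adult lung arrays (for an adult array, of the other adult arrays), as median (point) and quartiles (bar), for the 191 higher, 141 lower and 947 tested probes. The reprogrammed arrays have medians of 0.80 to 1.18 for the higher and -1.21 to -0.91 for the lower probes, and the adult arrays lie near 0.

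Reprogrammed lung was the more variable of the lung groups. The median SD of a probe over 3 arrays was 0.34 in reprogrammed lung and 0.18 in adult lung, and 674 of the 947 probes (71.2%) had the larger SD in reprogrammed lung. It was 0.30 in adult and 0.28 in reprogrammed mammary epithelium, so adult lung was the least variable group. Values at the floor lower the SD, and 15.1% to 19.9% of the probes lay there on the adult lung arrays. On the reprogrammed lung arrays it was 6.65% to 9.93%. Over the probes detected everywhere, the median SDs were 0.37 in reprogrammed and 0.22 in adult lung. Spots of a probe on the same array varied less, with median SDs of 0.0797 to 0.127 on the reprogrammed and 0.0718 to 0.0960 on the adult arrays. Over the 631 probes detected everywhere, Pearson's r ran from 0.979 to 0.993 within adult lung, from 0.908 to 0.980 within reprogrammed lung, and from 0.895 to 0.932 between the groups. The probes behind each r are not independent of one another. In reprogrammed lung, array 1 was the value farthest from the other two in 467 of the 807 probes whose range exceeded 0.2, and in adult lung array 1 was the farthest in 462 of 662.

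Individual arrays of both groups lay apart for 490 of the 947 probes (51.7%), meaning that every reprogrammed array was above, or every one below, all adult arrays. Among the 332 called probes, 186 of the higher and all 141 of the lower lay apart. The probes were called on these same arrays, so these counts largely follow from that choice and are a description. Another 163 probes lay apart without passing the adjusted threshold.

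The arrays came from 3 slides. Slide 1 held adult lung arrays 1 and 2 with reprogrammed lung array 3, slide 2 held adult lung array 3 with reprogrammed lung array 2, and slide 3 held reprogrammed lung array 1 and no adult lung. Within slide 1 the median difference was 1.11 for the higher and -1.04 for the lower probes, and within slide 2 it was 1.17 and -0.99. Over all tested probes the medians within the slides were 0.05 and 0.12. A limma fit that kept the slide as a fixed term called 293 probes, 176 higher and 117 lower. These medians come from 5 of the 6 arrays that chose the called probes, so both their direction and their size follow from that choice, and they are a description.

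The largest rise was that of the probe UCSF034_000380. Its log2 level was 5.04, 5.05 and 5.68 on the adult lung arrays and 10.91, 12.41 and 12.18 on the reprogrammed lung arrays. The lowest reprogrammed value stood 5.23 above the highest adult value. The named probes were chosen for large changes and groups that lay apart on these same arrays. Their gaps and their changes within slides are therefore a description. The mean rose from 5.26 ± 0.36 to 11.83 ± 0.81 (SD, n = 3 each), a log2 change of 6.58 ± 0.42 (SE), or 95.4-fold, with limma adjusted p = 4.3e-06. In unscaled processed signal this was 52.2, 52.0 and 104 on the adult arrays against 2219, 4747 and 5178 on the reprogrammed ones. The change was 7.13 within slide 1 and 6.73 within slide 2. The authors' deposited table gave a change of 5.64 for this probe, from a group mean of 6.24 in adult lung to 11.88 in reprogrammed lung.

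The probe with the preceding serial number, UCSF034_000379, had the next largest rise. Its level was 4.51, 4.63 and 4.82 in adult lung and 9.60, 10.62 and 10.22 in reprogrammed lung, so the groups lay apart by 4.78. The log2 change was 5.49 ± 0.31 (SE), or 44.9-fold, with limma adjusted p = 1.9e-06. It was 5.64 and 5.80 within slides 1 and 2. In both probes reprogrammed lung array 1 was the lowest of its group.

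The largest fall was that of UCSF034_000548. Its level was 8.54, 8.94 and 8.84 in adult lung and 3.88, 3.95 and 4.11 in reprogrammed lung. All 3 reprogrammed values lay within 1 log2 unit of the floor, although the probe was detected on all 12 arrays, and the groups lay apart by 4.44. The log2 change was -4.80 ± 0.21 (SE), 27.8-fold lower, with limma adjusted p = 2.3e-07. In unscaled signal the adult arrays read 592, 766 and 930 and the reprogrammed arrays 17.0, 13.4 and 19.4. The change was -4.63 and -4.89 within the slides, and -3.45 in the authors' deposited table.

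The probe with the preceding serial number, UCSF034_000547, fell as well, though with a wider spread in reprogrammed lung. Its level was 8.49, 8.94 and 8.82 in adult lung against 3.73, 4.87 and 5.49 in reprogrammed lung. Reprogrammed array 1 was again the lowest, and the groups lay apart by 3.00. The log2 change was -4.05 ± 0.44 (SE), 16.6-fold lower, with limma adjusted p = 0.000226. Within slides 1 and 2 it was -3.22 and -3.95. Each of these 4 probes kept its direction and its call in all 26 alternatives computed for it. The alternatives used the arrays that chose the probes, or most of them, so they are no separate support. Their changes ranged from 5.59 to 7.04, 4.12 to 5.76, -5.52 to -2.71 and -4.78 to -2.45, in the order given here. In a fit of the 6 lung arrays alone, their limma adjusted p was 0.00127, 0.000475, 0.000124 and 0.00508, in the same order.

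**Figure D4:**
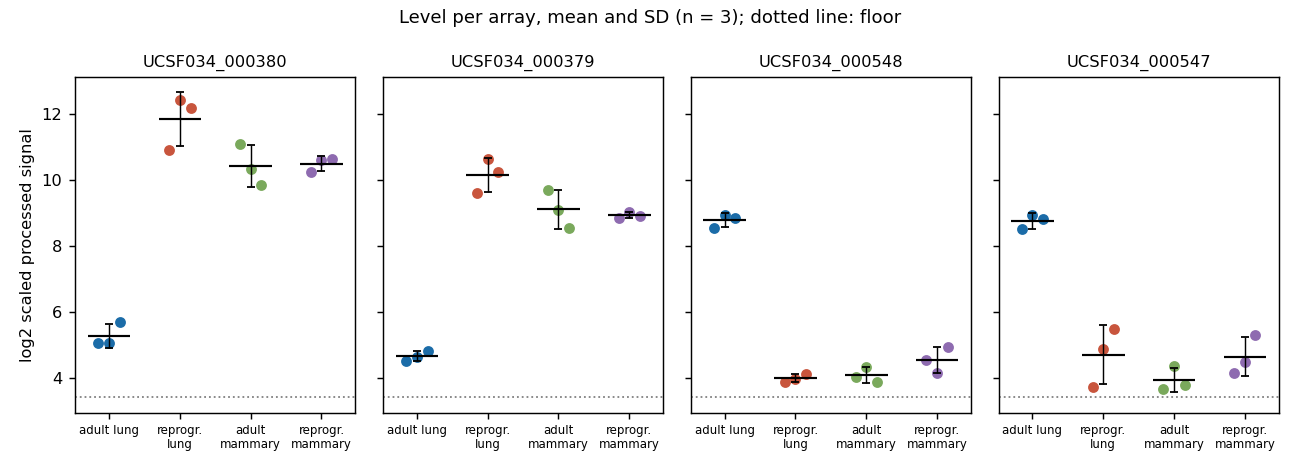
Log2 scaled processed signal of the 4 named probes on each of the 12 arrays, by group, with the group mean (line) and SD (bar, n = 3), and the floor of 3.41 (dotted). Both rising probes are low in adult lung alone, and both falling probes are high in adult lung alone.

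Called probes often had a called neighbour in the serial numbers. Of 604 pairs of consecutive serial numbers with both members tested, the first member was called in 214, and in 145 of these (67.8%) the second was called too, against 35.1% of all tested probes. Of the 145 pairs, 64 were both higher, 74 both lower and 7 opposite. Within 10 serial numbers on each side of UCSF034_000380, 10 other probes were tested, of which 5 were higher, 0 were lower and 3 were past 4-fold. Around UCSF034_000548, 15 others were tested, of which 2 were higher, 8 lower and 6 past 4-fold. No source used here says how serial numbers were given. Whether consecutive probes target the same or near-identical miRNAs was not tested, so neighbouring calls cannot be counted as independent.

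Between the lung groups, some probes were detected on every array of 1 group and on no array of the other, whatever the mammary arrays showed. On all 3 reprogrammed lung arrays and no adult lung array, 16 probes were detected. They were chosen for being detected in 1 lung group and not in the other. The direction of any call among them was fixed by that choice, so calls among them are no support for a change. A probe detected in 1 group alone passed the filter of 3 arrays only through that group. The 332 calls and the counts drawn from them include 9 of these 16 probes, all higher. Their dim side has only a bound, set on each adult array by its lowest detected signal or the probe's own signal, whichever was higher. On all 6 lung arrays the lowest detected signal lay at the floor of 3.41, so each bound has the size of the fitted change. The largest bound was at least 12.6-fold higher in reprogrammed lung. In 7 of the 16 the bound exceeded 2-fold. Of the 16, 6 were detected on all adult mammary arrays and 6 on none. On all adult and no reprogrammed lung arrays, 29 probes were detected. The largest bound was at least 8.96-fold lower in reprogrammed lung, and 7 exceeded 2-fold. Only 25 of the 29 had any bound above 1-fold. Of these 29 probes, 23 were detected on no adult mammary array and 2 on all of them. The 332 calls include 13 of the 29, all lower, and their direction was fixed in the same way. Without adult lung array 3, which had the most probes detected, the first count rose from 16 to 32. Detection was judged before scaling and the adult lung arrays were the brighter ones, and the part of this in the counts was not tested.

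The change under the lung label was set against the change under the mammary label, which shares no array with it. Both came from the same fit, with the same filter, scaling and pooled spread, so the calls of a probe in them are not independent. Between reprogrammed and adult mammary epithelium, 64 probes were higher (6.76%) and 21 lower (2.22%) at the same threshold. Of the 191 probes higher in reprogrammed lung, 25 were also higher and 2 lower in reprogrammed mammary, and their median mammary change was 0.08. Of the 141 lower probes, 0 were higher and 16 lower there, and their median mammary change was -0.19. Over all 947 probes the median mammary change was 0.01.

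**Figure D5:**
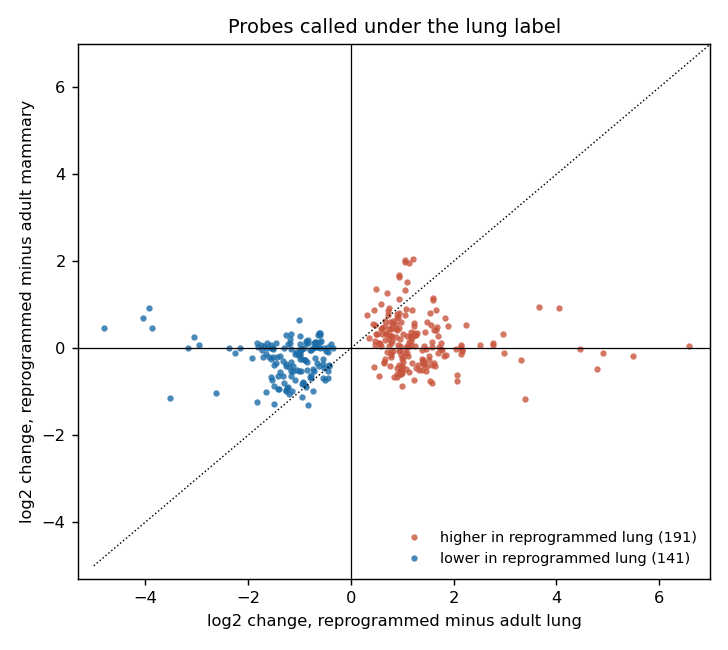
Log2 change between reprogrammed and adult lung (horizontal axis) and between reprogrammed and adult mammary epithelium (vertical axis) for the 191 probes called higher and 141 called lower in the lung comparison, with the dotted line of equal change. The points spread along the horizontal axis, with median mammary changes of 0.08 and -0.19.

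The difference of these changes, tested in limma as 1 contrast over the 12 arrays, was called in 107 of the 947 probes (11.3%). It was higher under the lung label in 63 and lower in 44, and 251 probes passed at an unadjusted p under 0.05. The count was 69 without adult lung array 2 and 76 with the replicate number as a block. Of the 107 probes, 105 were also called between the lung groups. The lung change is part of this contrast, so a called difference is no separate support for that change. For UCSF034_000380 the mammary arrays read 11.08, 10.32 and 9.84 in adult and 10.22, 10.59 and 10.62 in reprogrammed epithelium, a mammary change of 0.06 ± 0.42 (SE). The lung change exceeded it by 6.51 ± 0.60 (SE; limma adjusted p = 0.000109). For UCSF034_000379 the mammary change was -0.17 and the difference 5.66 ± 0.44 (SE; limma adjusted p = 4.0e-05). For UCSF034_000548 the mammary arrays read 4.03, 4.33 and 3.86 in adult and 4.53, 4.15 and 4.92 in reprogrammed epithelium, a mammary change of 0.46. The difference was -5.26 ± 0.29 (SE; limma adjusted p = 3.3e-06). All mammary values of this probe were thus far below its adult lung values. The adult mammary values lay within 1 log2 unit of the floor, and the reprogrammed mammary values reached 4.92.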

How the data were processed

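The files deposited by the authors give linear spot intensity from the scanner. Agilent Feature Extraction had subtracted the background from the processed signal, per the file headers. The headers of 11 files name version 10.5.1.1, the submitters' processing notes name 10.1, and the file of reprogrammed lung array 3 carries no such header and gives its values to 3 significant digits. RNA was labelled with Cy3 and an LNA-based miRNA kit, 1 sample an array, per the labels' protocols. The authors' deposited values are on a log2 scale, as found by setting them against the scanner values. They cover 2270 probes, 754 of them tested, and how they were scaled is unknown here.

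Control spots and outlier spots (164 to 345 an array) were left out, no spot was saturated, and spots of a probe were averaged. A probe with all its spots called outliers on 1 array kept them. The processed signal was scaled to the 75th percentile of the 631 probes detected on all 12 arrays, floored at 10.6 (the 5th percentile of detected spots, median of the arrays) and taken to log2. Fits used limma 3.58.1 in R 4.3.3, with fread of the data.table package 1.17.8 and statmod 1.5.0, over 4 group means and 8 residual degrees of freedom (prior 1.54). The fit was tested on simulated data with independent normal noise, equal spread in all groups and no floor applied. The real arrays differed in these respects, so the simulation does not cover unequal spread, floored values or neighbouring probes. Python 3.11.15 drew the figures, through pandas 2.3.3 and matplotlib 3.10.9.

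The named probes are the 2 highest and 2 lowest changes among called probes whose groups do not overlap. For the difference of effects they are the 2 highest and 2 lowest past the threshold. The comparison, lists and rules were chosen with earlier results of these data known. Alternatives covered scaling, background correction, signal column, filter, floor, spot summary, slide, replicate block, array weights and each array left out. The normexp alternative was planned on the mean spot signal and used the median spot signal, and normexp without a floor was added after seeing the data. The titles number the replicates 1, 2 and 3 in both lung groups and 1, 2 and 4 in both mammary groups. Whether same-numbered arrays belong together is not stated. Deviations of same-numbered arrays correlated at -0.02, 0.31 and -0.03 in lung and 0.25, -0.30 and -0.12 in mammary. With 3 arrays a group, these values cannot decide whether the arrays are paired. The reported fit left them unpaired, and the replicate block is given as an alternative.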

Additional observations from a re-analysis of the deposited data

Results flagged for a closer look

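The effect under the lung label differed from the effect under the mammary label in 107 probes, by limma's test of the difference itself (adjusted p under 0.05). Among them, UCSF034_000380 differed by 6.51 and UCSF034_000379 by 5.66 on the log2 scale, both changing more under the lung label. UCSF034_000548 differed by -5.26, and the probe with the second lowest difference by -4.85 ± 0.67 (SE; limma adjusted p = 0.00192). The lung change is part of each of these differences, so they are no separate support for it. Adult mammary and reprogrammed mammary arrays were dimmer than the adult lung arrays, with 75th percentiles of 1427 ± 93.3 and 842 ± 33.1 (SD, n = 3 each), and the part of this in the differences was not tested.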

How the results depend on the processing

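The count of 332 probes called between reprogrammed and adult lung fell to 185 when all 2579 probes were tested, where more tests share the adjustment, and to 183 with the added requirement of more than 2-fold. Leaving out 1 lung or mammary array at a time gave 204 (without adult lung array 2) to 378 calls, or 204 to 347 over the lung arrays alone. Normexp without a floor, chosen after seeing the data, gave 596, and all other settings gave between 226 and 484, the highest with array weights. The fit of the 6 lung arrays alone gave 294, of which 161 were higher and 133 lower. The 107 calls for the difference of effects became 356 with normexp, 58 with no filter, 67 over probes detected on all 12 arrays and 253 with array weights, and 69 to 149 with 1 array left out. The cause was not tested. With the replicate number as a block, 296 probes were called, 172 higher and 124 lower, 284 of them among the 332, and 76 for the difference; the titles' numbers were not taken as a pairing. The 16 probes detected on every reprogrammed lung and no adult lung array became 16 to 32 with 1 array left out. The mean number of probes detected was -24.7 in reprogrammed minus adult lung, and it reversed to 22.2 without adult lung array 3, over a range of -55.3 to 22.2. The fitted fall of a probe whose values lie at the floor depends on the floor. With the floor at the 1st percentile, the changes of UCSF034_000548 and UCSF034_000547 were -4.80 and -4.06. They were -3.45 and -3.04 in the authors' deposited values, and -2.71 and -2.45 with normexp. Which of these sizes is closest to the true fall was not tested.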
